A study of Mus musculus with 15 samples.

Results

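Foxp3 and 9 other genes by which regulatory T cells (Tregs) are usually recognised were followed through 15 RNA-seq libraries of sorted mouse Tregs. They were taken by name from the table of counts, which holds 24015 genes, and all 10 had enough counts to be tested among 13578 genes. They are Foxp3, Ikzf2, Ikzf4, Il2ra, Il2rb, Ctla4, Lrrc32, Nrp1, Gpr83 and Folr4. The study sorted CD45+CD3+CD4+YFP+ cells from adult C57BL/6 mice whose Foxp3 locus carries Cre and a yellow fluorescent protein (Foxp3 cre-eyfp), an allele that every group shares, controls included. The 5 groups hold 3 libraries each. Wild-type (WT) groups, with that allele alone, are from axillary lymph nodes (LN), untreated skin and MC903-treated skin. The other groups, here called cKO, also carry floxed Rora alleles (Rora fl/fl), which the Foxp3-driven Cre can act on, and are from both kinds of skin. MC903, or calcipotriol, an analogue of vitamin D with which allergic skin inflammation is modelled, was applied to ears 4 times, every other day.

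The design limits what each group can stand for. The sort itself rests on YFP made from the Foxp3 locus, so a cell that had lost YFP along with Foxp3 expression was not collected. Untreated skin was back skin and ears and treated skin was ears only, so treatment and site cannot be told apart. Skin was digested for 90 minutes and no digestion is stated for LN, so tissue and digestion cannot be told apart. The labels call the replicates biological but do not say whether animals were pooled, and the p-values measure the spread between these samples.

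Foxp3 encodes the forkhead transcription factor on which the Treg lineage depends. Tregs make little interleukin 2 of their own and take it up through a receptor of which CD25 (Il2ra) and the beta chain (Il2rb) are parts, and its signal through STAT5 maintains Foxp3. CTLA-4 removes the costimulatory ligands CD80 and CD86 from antigen-presenting cells, GARP (Lrrc32) holds latent TGF-beta at the cell surface, and Helios (Ikzf2) and Eos (Ikzf4) are Ikaros-family transcription factors found with Foxp3. Neuropilin-1 (Nrp1), the orphan receptor Gpr83 and the folate receptor relative Folr4 (Izumo1r in RefSeq) are surface proteins used as Treg markers in mice.

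Total counts were 19.8 to 27.7 M per library, M being the mega prefix, and values below are counts per M of the scaled library (CPM). Each of the 8 T cell markers was detected in every group, and they summed to 6586 to 10000 CPM per library. Keratinocyte markers summed to 47.8 to 643 CPM in skin and 15.1 to 17.3 CPM in LN (10 genes, with Krt15, Krtdap and Lor at 0 in LN), and fibroblast markers to 15.8 to 411 CPM and 1.05 to 4.08 CPM (7 genes, Lum at 0 in LN). B cell markers summed to 7.11 to 21.2 CPM in skin and to 217, 190 and 693 CPM in LN replicates 1 to 3 (8 genes, with Pax5 at 0 in every skin group). Rora, the floxed gene, fell in cKO averaged over treatments (log2 change -0.50 ± 0.10, SE, with adjusted p = 0.0193). Within untreated skin (-0.43 ± 0.15, adjusted p = 0.250) and within MC903 skin (-0.57 ± 0.15, adjusted p = 0.191) Rora was not called. Its cKO libraries lay below the WT libraries in both. All adjusted p-values are from edgeR's quasi-likelihood test, with the Benjamini-Hochberg method over all genes tested, unless another tool is named.

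The groups of the comparisons that follow are best seen gene by gene. Foxp3 was read at 148, 202 and 163 CPM in WT untreated skin, 150, 163 and 128 CPM in cKO untreated skin, 159, 110 and 117 CPM in WT MC903 skin, 128, 123 and 124 CPM in cKO MC903 skin and 28.4, 16.2 and 41.8 CPM in LN. All 12 skin libraries lay above all 3 LN libraries, and among the 4 skin groups those next to each other in mean overlapped, while WT untreated skin, with the highest mean, lay above cKO MC903 skin, with the lowest. Foxp3 shares exonic sequence with Ccdc22 on the opposite strand. Ccdc22 averaged 29.8 ± 9.52 CPM (SD, n = 3) in LN, as many reads as Foxp3 had there (28.8 ± 12.8 CPM), and 26.1 ± 1.58 CPM in WT untreated skin. Without strand, reads from the overlap cannot be assigned, and how the authors' counting treated them is not given.

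**Figure D1:**
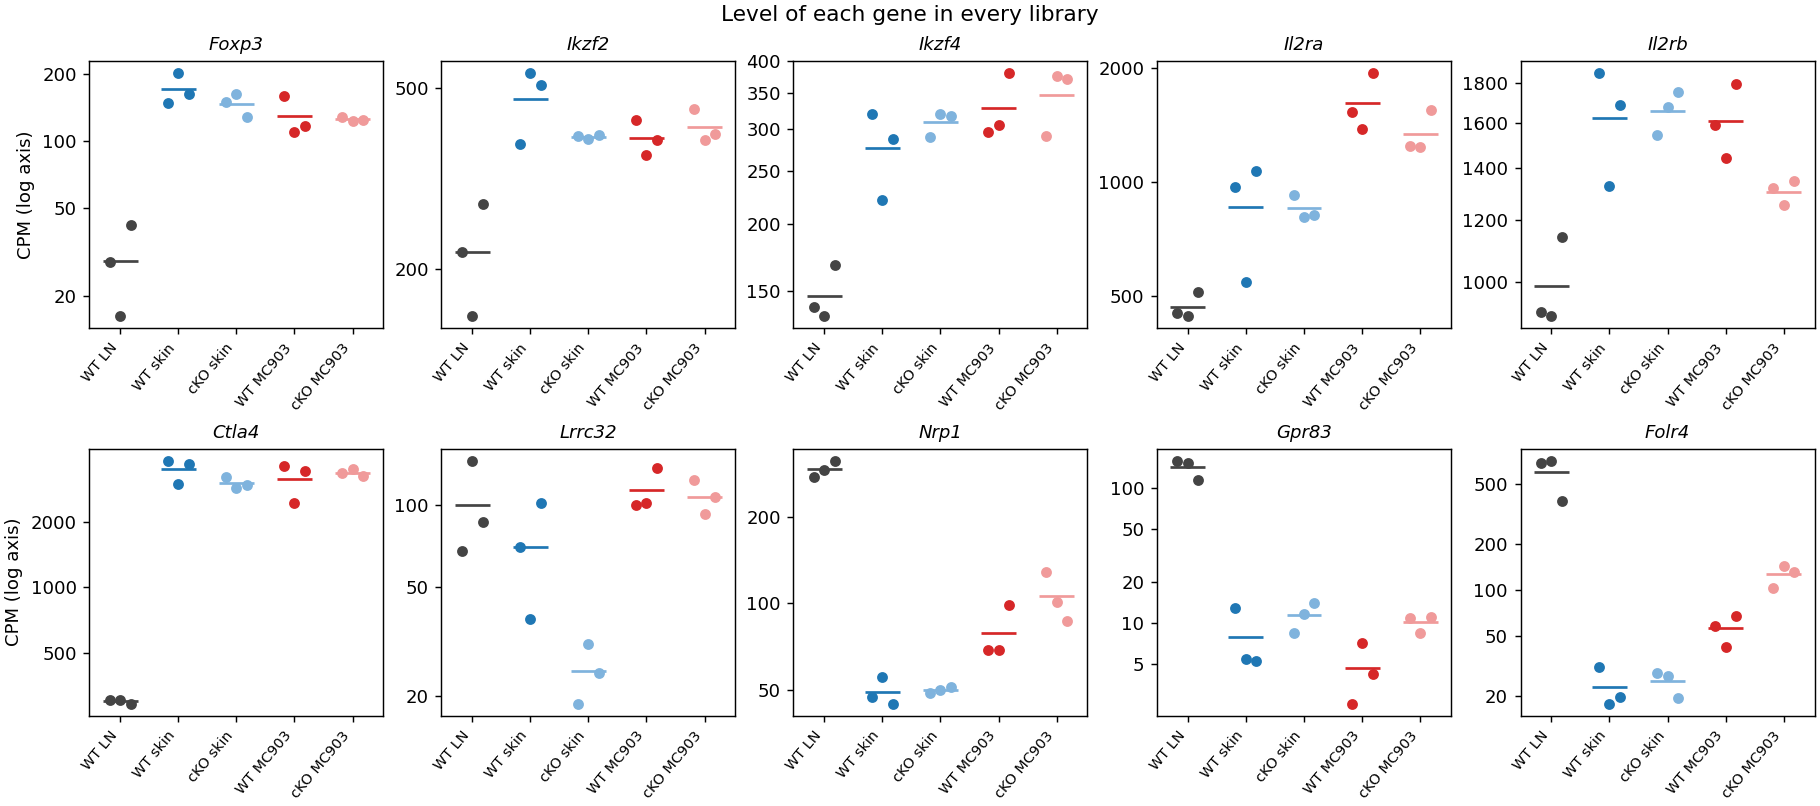
CPM (log axis, scaled separately in each panel) of the 10 genes in every library; points are libraries and lines are the means of the 3 libraries of a group. The LN points lie below all skin points for 6 genes and above them for Nrp1, Gpr83 and Folr4, and for Lrrc32 they overlap.

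Upstream sequences are shown for a pair of genes that were higher in skin, Foxp3 and Ctla4, and for the pair that differed most in the other direction, Gpr83 and Folr4. RefSeq (GRCm38.p6) gives 250 bases before the start for 6 of the 10 genes, with 2 starts for Foxp3. Only the second Foxp3 window, the one that held matches, is printed. The first (chrX:7579426-7579675) held no match to any motif searched. Capitals mark matches to either of 2 motifs, the STAT element TTCNNNGAA and the NFAT core GGAAAA, each searched on both strands. The windows are chrX:7580233-7580482 (plus strand) for Foxp3, chr1:60908775-60909024 (plus) for Ctla4, chr9:14859960-14860209 (plus) for Gpr83 and chr9:14903768-14904017 (minus) for Folr4.
Foxp3: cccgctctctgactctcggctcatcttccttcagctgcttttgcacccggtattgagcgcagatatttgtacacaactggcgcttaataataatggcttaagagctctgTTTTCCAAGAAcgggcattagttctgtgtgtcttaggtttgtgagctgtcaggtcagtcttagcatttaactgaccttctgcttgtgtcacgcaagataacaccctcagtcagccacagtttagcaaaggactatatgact
Ctla4: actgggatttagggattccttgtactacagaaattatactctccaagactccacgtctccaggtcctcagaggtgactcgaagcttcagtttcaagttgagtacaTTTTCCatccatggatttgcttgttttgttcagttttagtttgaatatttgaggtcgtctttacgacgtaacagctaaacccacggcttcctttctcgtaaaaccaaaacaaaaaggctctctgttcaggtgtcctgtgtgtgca
Gpr83: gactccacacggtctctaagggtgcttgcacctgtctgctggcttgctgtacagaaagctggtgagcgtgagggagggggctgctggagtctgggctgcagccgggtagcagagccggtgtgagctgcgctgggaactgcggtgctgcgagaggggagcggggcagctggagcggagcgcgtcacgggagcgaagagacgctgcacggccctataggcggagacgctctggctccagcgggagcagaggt
Folr4: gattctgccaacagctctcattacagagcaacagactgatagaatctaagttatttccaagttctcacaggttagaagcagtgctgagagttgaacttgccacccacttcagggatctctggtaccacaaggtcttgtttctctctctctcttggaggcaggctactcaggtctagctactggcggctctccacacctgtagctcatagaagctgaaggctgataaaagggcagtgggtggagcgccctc
The capitals in Foxp3 are an overlapping STAT match, TTCCAAGAA, and NFAT match, TTTTCC, which begin 139 and 141 bases before the start, and those in Ctla4 are an NFAT match 145 bases before it. Of 32851 RefSeq promoter windows of this length, 7.02% hold the STAT element and 20.4% the NFAT core. The forkhead core TGTTTAC (3.17% of windows) and the AP-1 site TGANTCA (6.75%) had no match in the windows of the 6 genes. Neither of the other motifs matched in the first Foxp3 window or in Gpr83, Folr4, Il2ra or Nrp1. Il2ra, like Foxp3 and Ctla4, was higher in skin than in LN, so the matches do not divide the genes by direction. A match here is a match of letters only.

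WT skin and LN Tregs were compared to see what sets the tissue cells apart. Skin exceeded LN in 6 of the 10 genes, LN exceeded skin in 3, and Lrrc32 did not pass. Of all genes tested, 57.6% were called in this comparison, 28.8% higher and 28.8% lower. Libraries of the groups were apart for the same 9 genes and for 63.4% of all genes. The sizes were far apart: skin held 11.5 times as much Ctla4 transcript as LN and 5.94 times as much Foxp3, while LN held 25.9 times as much Folr4 and 17.9 times as much Gpr83. In bulk RNA, fewer cells of a type and less RNA per cell cannot be told apart.

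Ctla4 was read at 3785, 2980 and 3655 CPM in untreated WT skin and at 306, 305 and 295 CPM in LN (log2 change 3.52 ± 0.15, adjusted p = 3.48e-11, with the SE and n = 3 per group here and below). The lowest skin library of any group, at 2434 CPM, lay far above the LN libraries, which hardly varied. Per kb of exon Ctla4 had the highest level of the 10 genes, 1800 CPM per kb in WT untreated skin and 156 in LN, where Folr4 (267) and Il2rb (230) were above it. The change of Foxp3 was 2.57 ± 0.26 (adjusted p = 6.69e-07).

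The Ikaros-family members changed less. Ikzf2, which encodes Helios, was read at 377, 540 and 508 CPM in untreated WT skin and 218, 158 and 279 CPM in LN (1.12 ± 0.17, adjusted p = 5.42e-05). Ikzf4, which encodes Eos, was read at 319, 221 and 287 CPM in skin and 140, 135 and 168 CPM in LN (0.90 ± 0.15, adjusted p = 1.23e-04). Both genes had every skin library of the 12 above every LN library. Among the 3 other family members listed, Ikzf3, which encodes Aiolos, rose (1.91 ± 0.20), Ikzf5 rose (0.83 ± 0.16) and Ikzf1, which encodes Ikaros, fell (-0.42 ± 0.15, adjusted p = 0.0300).

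Both receptor chains of interleukin 2 were higher in skin. Il2ra was read at 969, 545 and 1067 CPM in untreated WT skin and 451, 442 and 512 CPM in LN (0.88 ± 0.20, adjusted p = 0.00145), and the second skin library was close to LN. Il2rb was read at 1852, 1325 and 1687 CPM in skin and 913, 903 and 1141 CPM in LN (0.72 ± 0.14, adjusted p = 3.40e-04). Of 13 other genes of the receptor and STAT5 pathway, 7 were higher in skin and 3 lower, with a median of 0.51 where the median of all genes was 0.01. Cish, a STAT5-induced inhibitor of the receptor, rose (2.05 ± 0.10) and so did the kinase gene Pim1 (3.46 ± 0.17), while the survival gene Bcl2 dropped from 318 ± 8.23 CPM (SD) in LN to 4.83 ± 1.80 CPM.

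Folr4, Gpr83 and Nrp1 were the 3 genes lower in skin. Folr4 was read at 31.4, 17.9 and 19.7 CPM in untreated WT skin and at 692, 711 and 384 CPM in LN (-4.69 ± 0.30, adjusted p = 6.26e-09). Gpr83 was read at 13.0, 5.39 and 5.22 CPM in skin and 159, 152 and 114 CPM in LN (-4.16 ± 0.40, adjusted p = 5.31e-07). In both genes the lowest LN library was replicate 3, the one with the most B cell transcript and the most Foxp3, and without that library all 9 calls held.

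Nrp1 was read at 47.2, 55.2 and 44.7 CPM in untreated WT skin and 277, 293 and 315 CPM in LN (-2.59 ± 0.17, adjusted p = 5.00e-09). Nrp1 is also an endothelial gene, and among the 7 endothelial markers Pecam1, which T cells express too, was at 20.3 to 34.9 CPM in untreated WT skin and 107 to 155 CPM in LN. The other 6 summed to at most 5.75 CPM and 0.188 CPM in those groups, and Tie1, Tek and Emcn were at 0 in LN. Of 10 tested ligands and partners of neuropilin-1, 5 were higher in skin and 0 lower, among them its ligand gene Vegfa (6.46 ± 0.70) and the coreceptor gene Plxna1 (3.51 ± 0.49). Both were low, Vegfa at 9.87 ± 1.63 CPM (SD) in untreated WT skin and 0.105 ± 0.155 CPM in LN, and Plxna1 at 13.5 ± 6.27 and 1.19 ± 0.350 CPM. The part of other skin cells in these levels was not tested. Lrrc32 was read at 70.0, 38.2 and 102 CPM in skin and 67.6, 145 and 86.4 CPM in LN (-0.52 ± 0.32, adjusted p = 0.183). Its libraries overlapped, and without replicate 3 of WT untreated skin it was called (-0.88, adjusted p = 0.0330). Of 12 genes around GARP and TGF-beta signalling, 9 were higher in skin and 1 lower, with Itgav, an integrin chain that binds latent TGF-beta, at 3.95 ± 0.22 and the protease gene Furin at 4.44 ± 0.24.

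Around CTLA-4, 3 of 9 partners were higher in skin and 3 lower. The costimulatory receptor genes Icos (3.36 ± 0.18) and Cd28 (1.27 ± 0.15), which flank Ctla4 on chromosome 1, rose with it, as did the ligand gene Cd80 (2.75 ± 0.26). Cd80 was low, at 9.41 ± 0.488 CPM (SD) in untreated WT skin and 1.39 ± 0.384 CPM in LN. The part of antigen-presenting cells in its level was not tested. Of 32 regulators and partners of Foxp3, 16 were higher and 6 lower, with the NF-kappa-B gene Rel, which acts at the Foxp3 locus, at 3.03 ± 0.21 and the helix-loop-helix inhibitor gene Id2 at 5.03 ± 0.18. Of 22 other Treg signature genes 17 were higher and 1 lower (median 2.01), led by Il10, S100a6 (3.58 ± 0.15) and S100a4 (3.71 ± 0.19). The 12 genes that Foxp3 is known to hold down were split, 6 higher and 5 lower (median 0.05): Il7r rose (1.24 ± 0.18) while the kinase gene Zap70 fell (-0.60 ± 0.11) and the CD40 ligand gene Cd40lg fell (-0.94 ± 0.16).

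**Figure D2:**
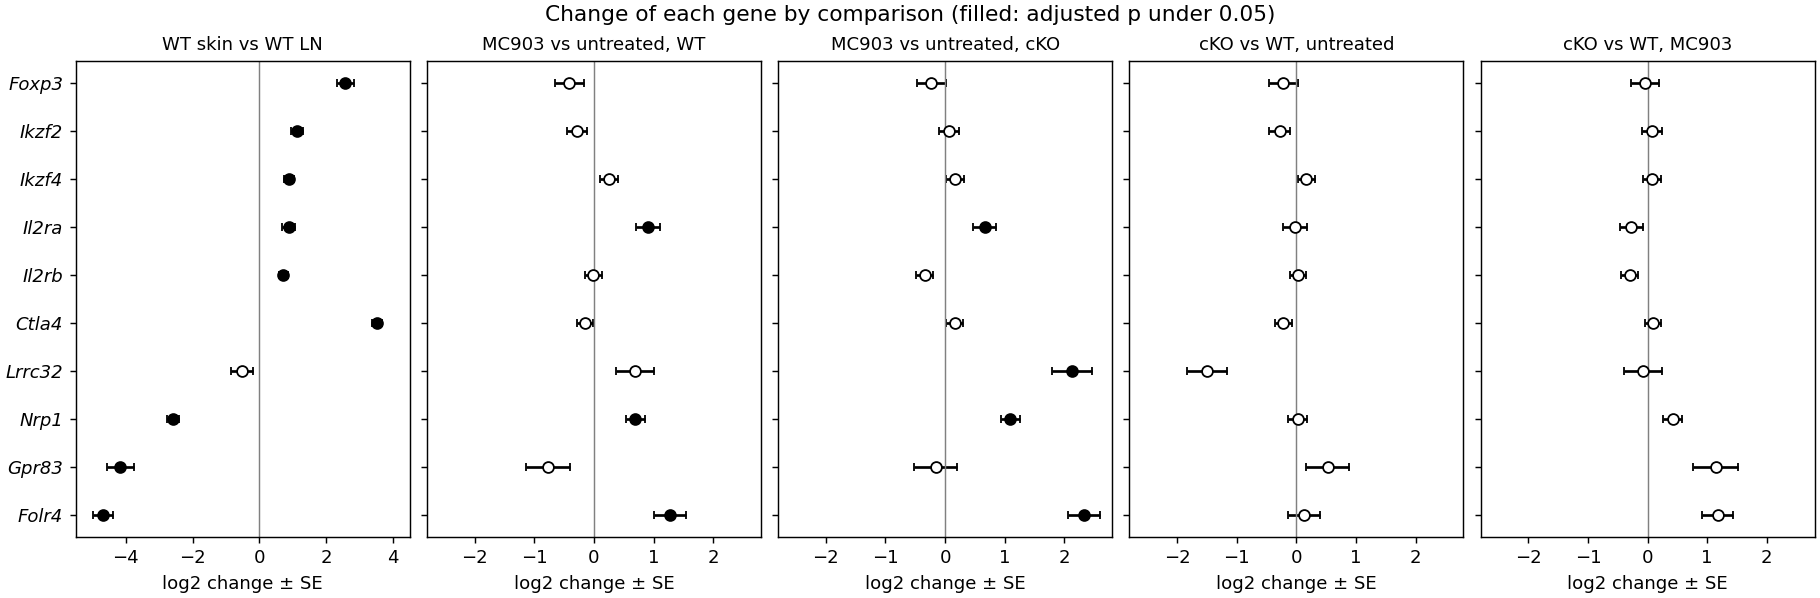
Log2 change with its standard error for each gene in 5 comparisons, filled where the adjusted p was under 0.05; the first panel has a wider axis. In the skin against LN panel Ctla4 is farthest right at 3.52 and Folr4 farthest left at -4.69, and both genotype panels hold open points only.

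The authors' deposited table of the same comparison gives LN minus skin, so its signs are opposite. In the authors' deposited table Foxp3 stands at -2.54 ± 0.25, Ctla4 at -3.54 ± 0.14, Folr4 at 4.52 ± 0.26, Gpr83 at 3.92 ± 0.34 and Nrp1 at 2.51 ± 0.17, and Lrrc32 is the member that does not pass (adjusted p = 0.193).

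WT MC903 skin was set beside the same LN libraries, so the 2 comparisons share their LN values. The same 9 genes were called, 6 higher and 3 lower, against 51.1% of all genes, 26.5% higher and 24.5% lower, with the groups apart for those 9 and for 62.9% of all genes. The change was 3.38 ± 0.15 for Ctla4, 2.16 ± 0.26 for Foxp3, 1.79 ± 0.20 for Il2ra, -1.90 ± 0.17 for Nrp1, -3.41 ± 0.28 for Folr4 and -4.93 ± 0.42 for Gpr83. Lrrc32 stood at 0.17 ± 0.32.

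The ratio of each gene to Foxp3 in the same library does not depend on library size. In LN, every one of the other 9 genes had more reads than Foxp3 in each library. Folr4 had 21.4 times the reads of Foxp3 in LN (geometric mean, range 9.20 to 43.9, n = 3), 0.131 times in WT untreated skin (0.0885 to 0.212), 0.433 times in WT MC903 skin (0.364 to 0.581) and 0.803 to 1.18 times in cKO MC903 skin. Il2rb, whose own level was 1.64 times higher in skin, had 36.6 times the reads of Foxp3 in LN and 9.46 times in WT untreated skin. Ctla4 was the gene whose ratio was higher in skin, at 20.4 in WT untreated skin (14.8 to 25.6) and 11.3 in LN (7.05 to 18.8), with overlapping libraries. Gene length enters each ratio, so they compare groups, not genes.

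**Figure D3:**
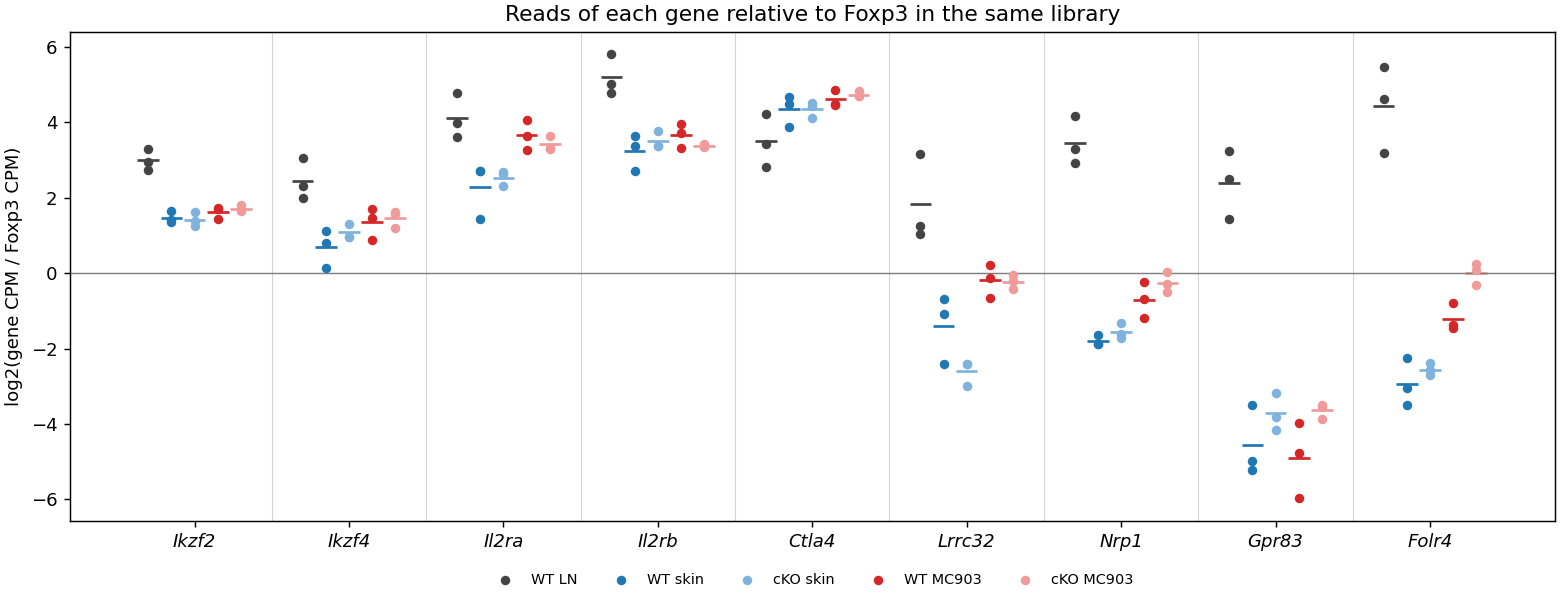
Log2 ratio of each gene's CPM to that of Foxp3, with points for libraries and lines for the means of 3 libraries, coloured by group. The LN points lie above all skin points for every gene but Ctla4 and Il2ra, and the Folr4 points of LN, WT MC903 and WT untreated skin average 4.42, -1.21 and -2.93.

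MC903-treated and untreated skin were compared in each genotype to see what differed with treatment, which cannot be told apart from site. In WT, 3 of the 10 genes were higher with MC903 and 0 lower (10.5% of all genes called, 5.03% higher and 5.44% lower), and in cKO 4 were higher and 0 lower (11.3% called, 5.96% higher and 5.30% lower). Averaged over genotypes, the 4 were Folr4 (1.81 ± 0.19, adjusted p = 1.45e-05), Lrrc32 (1.41 ± 0.23, adjusted p = 6.57e-04), Nrp1 (0.89 ± 0.12, adjusted p = 7.03e-05) and Il2ra (0.78 ± 0.14, adjusted p = 9.09e-04), where 25.1% of all genes were called, 12.8% higher and 12.3% lower. Foxp3 did not pass in either genotype (-0.41 ± 0.24 in WT and -0.23 ± 0.24 in cKO, adjusted p = 0.314 and 0.592), although the cKO libraries with MC903 lay below those without, the nearest at 128 CPM each after rounding. Ctla4 (-0.15 ± 0.14 and 0.16 ± 0.14) and Ikzf2 (-0.28 ± 0.17 and 0.07 ± 0.17) did not pass either.

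Folr4 was read at 57.9, 42.5 and 67.7 CPM in WT MC903 skin, against 31.4, 17.9 and 19.7 CPM untreated (1.28 ± 0.27, adjusted p = 0.00742). In cKO it was read at 103, 145 and 132 CPM with MC903 and 28.5, 27.3 and 19.6 CPM without (2.33 ± 0.27, adjusted p = 1.41e-04). Every MC903 library lay above every untreated library and below every LN library. Nrp1 showed the same order, at 69.0, 68.9 and 98.9 CPM in WT MC903 skin (0.69 ± 0.16, adjusted p = 0.0145) and 129, 101 and 87.2 CPM in cKO MC903 skin, from 48.5, 49.9 and 51.2 CPM (1.09 ± 0.16, adjusted p = 9.52e-04). The WT call of Nrp1 was lost without replicate 3 of WT MC903 skin (0.49, adjusted p = 0.0762), without the 3 libraries richest in fibroblast transcripts (adjusted p = 0.0658) and with only the compared groups in the fit (adjusted p = 0.0773). Pecam1 rose as well, to 82.2 to 92.8 CPM in WT and 71.1 to 87.2 CPM in cKO MC903 skin, while the other 6 endothelial markers summed to 0.710 to 10.8 CPM and 0.0432 to 22.6 CPM, and their part in the Nrp1 result was not tested. Of the other cell types' lists, the 14 macrophage and dendritic cell markers summed to 59.1 to 86.8 CPM in untreated and 86.7 to 209 CPM in MC903 skin of cKO (2 of 12 tested were higher, 0 lower), and to 31.2 to 165 CPM and 29.9 to 59.4 CPM in WT (0 of 12 called), with none at 0 in a whole group. The 5 mast cell markers summed to 10.9 to 18.6 CPM and 13.9 to 30.4 CPM in cKO, where Cpa3 and Tpsb2 were at 0 untreated, and to 17.2 to 26.0 CPM and 13.8 to 33.8 CPM in WT, where Ms4a2 was at 0 untreated (averaged over genotypes 3 of 5 were higher and 1 lower). Within cKO 1 of the 5 was higher and 0 lower, with a median change of 8.03, and within WT 0 were called. Libraries with and without MC903 were apart, in either direction, for 5 of the 5 in cKO and 0 in WT. Of all genes, 33.4% and 28.2% were apart. The part of these cells in the rises of Folr4, Nrp1, Il2ra and Lrrc32 was not tested.

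Il2ra rose away from the LN level. Its level was 1534, 1382 and 1938 CPM in WT MC903 skin (0.91 ± 0.20, adjusted p = 0.00926) and 1243, 1236 and 1546 CPM in cKO MC903 skin, from 926, 810 and 816 CPM (0.66 ± 0.20, adjusted p = 0.0429). The libraries with and without MC903 did not overlap in either genotype, as was the case for 28.2% of all genes in WT and 33.4% in cKO. The WT call was lost without the fibroblast-rich libraries (adjusted p = 0.0554) and with only the compared groups in the fit (adjusted p = 0.0744). The cKO call was lost when any of 8 single libraries was left out (adjusted p = 0.0531 to 0.144, changes 0.54 to 0.71) and without the fibroblast-rich libraries (adjusted p = 0.121). Those 8 are replicates 2 and 3 of cKO untreated skin, all 3 of cKO MC903 skin, replicate 1 of WT MC903 skin and replicates 1 and 2 of LN. Il2rb did not move with it (-0.01 ± 0.14 in WT, and -0.34 ± 0.14 in cKO, adjusted p = 0.115). Averaged over genotypes 4 of the 13 other receptor and STAT5 genes were higher and 3 lower, with Stat5b at 0.63 ± 0.08, Il7r, the interleukin 7 receptor, at 0.76 ± 0.12 and Cish at -0.56 ± 0.07.

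Lrrc32 was read at 123, 92.7 and 107 CPM in cKO MC903 skin and 18.7, 30.8 and 24.3 CPM in cKO untreated skin (2.13 ± 0.34, adjusted p = 0.00165). In WT it was read at 100, 102 and 136 CPM with MC903 and 70.0, 38.2 and 102 CPM without, and the change did not pass (0.69 ± 0.32, adjusted p = 0.197). The difference between these changes, the genotype by MC903 interaction, was 1.44 ± 0.46 with an adjusted p of 0.866 and an unadjusted p of 0.00713. The libraries were apart in cKO and overlapped in WT, and the cKO untreated libraries were the lowest of all 15. Lrrc32 is also known from platelets. Their 5 markers summed to 3.80, 23.4 and 5.25 CPM in replicates 1 to 3 of cKO MC903 skin, where Gp9 and Gp1bb were at 0. In cKO untreated skin they summed to 1.34 to 2.79 CPM, with Ppbp at 0. In WT they summed to 0.756 to 5.98 CPM untreated and 1.67 to 4.30 CPM with MC903, with Ppbp at 0 in each. Of 2 tested, 1 was higher with MC903 in cKO and 0 in WT, beside 5.96% and 5.03% of all genes. The part of platelets in the Lrrc32 results was not tested. Of the 12 genes around GARP, averaged over genotypes, 1 was higher with MC903, 8 were lower and 3 did not pass, with a median of -0.57 where that of all genes was 0.01. Within WT 0 were higher and 4 lower, and within cKO 1 was higher and 5 lower. The receptor gene Tgfbr1 fell (-1.09 ± 0.13), as did the signalling inhibitors Ski (-0.82 ± 0.14) and Smad7 (-0.96 ± 0.19).

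Among the other lists with MC903, averaged over genotypes, the CTLA-4 ligand gene Cd86 fell (-1.40 ± 0.17), as did Cd28 (-0.66 ± 0.10), with 2 of 9 partners higher and 2 lower. In WT skin Cd86 was at 16.9 ± 1.88 CPM (SD) with MC903 and 61.9 ± 24.6 CPM without. In cKO skin it was at 22.2 ± 2.13 and 42.1 ± 11.0 CPM. The part of antigen-presenting cells in the fall of Cd86 was not tested. Of 32 regulators and partners of Foxp3, 4 were higher and 12 lower. Id2 fell (-1.37 ± 0.11) and Lef1, a transcription factor gene of resting T cells, rose (1.27 ± 0.12). Among 22 other signature genes, 6 were higher and 5 lower. The activation receptor gene Tnfrsf9 rose (1.41 ± 0.12), while Il10 (-1.13 ± 0.11) and the integrin gene Itgae (-0.98 ± 0.14) fell. Of 12 held-down genes 2 were higher and 5 lower, with the cytokine gene Ifng at -2.96 ± 0.34.

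Folr4 and Gpr83 lie side by side on chromosome 9, with Mre11a and Panx1 as the next protein-coding genes. Both were low in skin, but Gpr83 did not rise with MC903, at 2.54, 7.09 and 4.23 CPM in WT MC903 skin (-0.77 ± 0.37, adjusted p = 0.211) and 11.0, 8.48 and 11.1 CPM in cKO MC903 skin (-0.16 ± 0.36). Skin groups next to each other in mean overlapped. Mre11a, a DNA repair gene, fell in skin against LN (-1.84 ± 0.34), and the channel gene Panx1 did not pass there (0.34 ± 0.15, adjusted p = 0.0611). Neither passed with MC903 in WT (0.70 ± 0.33 and 0.39 ± 0.15).

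**Figure D4:**
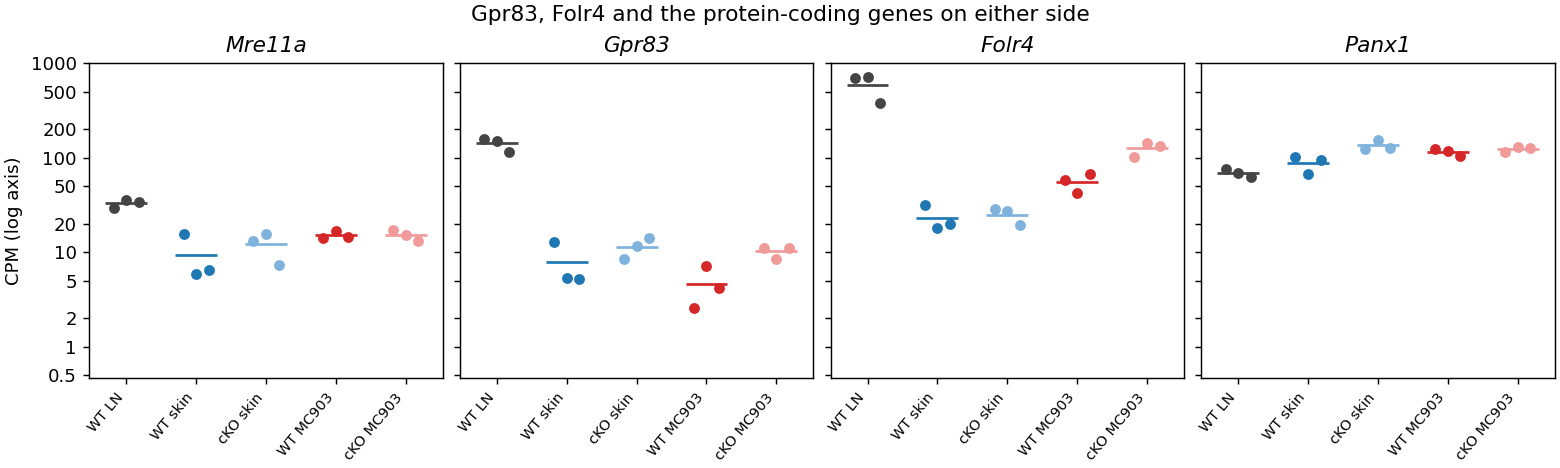
CPM (shared log axis) of Gpr83, Folr4 and the protein-coding genes on either side in every library, with lines at the means of 3 libraries. Folr4 averages 23.0 CPM in WT skin, 56.0 in WT MC903, 127 in cKO MC903 and 596 in LN, while Gpr83 stays between 4.62 and 11.4 on average in the 4 skin groups.

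cKO and WT Tregs were compared to see what floxed Rora alleles change. None of the 10 genes passed by edgeR in untreated skin (0 called against 0.803% of all genes, 0.398% higher and 0.405% lower), in MC903 skin (0 against 0.258%, which is 0.0810% higher and 0.177% lower) or averaged over treatments (0 against 1.75%, which is 0.884% higher and 0.862% lower). Its unadjusted p was under 0.05 for 1, 4 and 3 of the 10 in the same order, beside 11.5%, 6.75% and 11.8% of all genes. By DESeq2, 1, 1 and 3 passed in the same order, beside 323 of 13290, 140 of 13028 and 462 of 13028 genes. Those were Lrrc32 in untreated skin, Folr4 in MC903 skin, and Lrrc32, Gpr83 and Folr4 averaged over treatments. For Foxp3 the change was -0.22 ± 0.24 in untreated and -0.04 ± 0.24 in MC903 skin, for Ctla4 -0.22 ± 0.14 and 0.09 ± 0.14, for Il2ra -0.02 ± 0.20 and -0.27 ± 0.20 and for Ikzf2 -0.28 ± 0.17 and 0.08 ± 0.17. A p that misses the threshold does not show that the genotypes are alike.

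Lrrc32 and Folr4 stood near the threshold in 1 treatment each, with the libraries of both genotypes apart. Lrrc32 in untreated skin was at 18.7 to 30.8 CPM in cKO and 38.2 to 102 CPM in WT (-1.50 ± 0.33, adjusted p = 0.0515). It passed by DESeq2 (adjusted p = 2.23e-04), with a filter of 50 counts in 3 libraries (0.0483), without replicate 2 of WT untreated skin (-1.80, 0.0112) and without replicate 1 or 2 of LN (0.0392 and 0.0223). Folr4 in MC903 skin was at 103 to 145 CPM in cKO and 42.5 to 67.7 CPM in WT (1.18 ± 0.26, adjusted p = 0.0914), and passed by DESeq2 (0.00140), by limma-voom (0.0166) and without replicate 3 of LN (0.0310). In MC903 skin the groups were also apart for Gpr83 (1.14 ± 0.37, adjusted p = 0.411) and, with cKO lower, for Il2rb (-0.30 ± 0.14, adjusted p = 0.711). Nrp1 stood at 0.42 ± 0.16 there (adjusted p = 0.563), with overlapping libraries. Averaged over treatments, Gpr83 stood at 0.83 ± 0.26 (adjusted p = 0.162). Groups were apart for 1 of the 10 genes in untreated skin and 3 in MC903 skin, and for 13.6% and 16.0% of all genes. The 14 macrophage and dendritic cell markers summed to 86.7 to 209 CPM in cKO MC903 skin and 29.9 to 59.4 CPM in WT MC903 skin. Of 12 tested, 0 were called between these groups and 6 had libraries apart (median change 1.66). In untreated skin they summed to 59.1 to 86.8 CPM in cKO and 31.2 to 165 CPM in WT. The part of these cells in the genotype differences was not tested.

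The genotype by MC903 interaction called 0 of the 10 genes and 0% of all genes by edgeR, with 2 of the 10 and 765 of 13578 at an unadjusted p under 0.05, and DESeq2 called 17 genes, none of them among the 10. Folr4 stood at 1.05 ± 0.37 (adjusted p = 0.866, unadjusted p = 0.0129).

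A few listed Foxp3 regulators and target genes were called between genotypes. In untreated skin, Satb1, a chromatin organiser that Foxp3 holds down, rose in cKO (2.09 ± 0.34, from 30.8 ± 6.66 to 131 ± 37.5 CPM, SD), Gata3 rose (0.59 ± 0.13) and Runx1, a partner of Foxp3, fell (-0.88 ± 0.16), which makes 2 higher and 1 lower of 32 regulators and partners, with 29 not called. Among 12 genes that Foxp3 is known to hold down, 3 were higher, Pde3b (3.29 ± 0.34), Cd40lg (1.18 ± 0.16) and Satb1, and 0 lower, with a median of 0.45 where that of all genes was near 0. Of all genes, 0.398% were called higher and 0.405% lower. The lists were chosen with earlier results of these data known, so their counts are descriptions and do not test a list. Of 22 other Treg signature genes 0 were higher and 2 lower, the CD73 gene Nt5e (-2.66 ± 0.32) and Cd83 (-0.73 ± 0.16). In MC903 skin 0 of the 32 regulators were called, 1 of the 12 held-down genes was higher, Cd40lg (0.90 ± 0.16, adjusted p = 0.0233), and of the 22 signature genes S100a6 was higher (0.74 ± 0.14) and S100a4 lower (-0.87 ± 0.17). The average over treatments, which holds the untreated libraries too, had 3 of the 12 held-down genes higher and 0 lower. In it 2 of the 32 regulators were higher and 2 lower, and 2 of the 22 signature genes were higher and 3 lower. Of the 13 other receptor and STAT5 genes 0 were higher and 1 was lower, Stat5a (-0.39 ± 0.10, adjusted p = 0.0482). Of all genes, 0.884% were called higher and 0.862% lower. Satb1 is counted in both the regulator and the held-down lists.

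**Figure D5:**
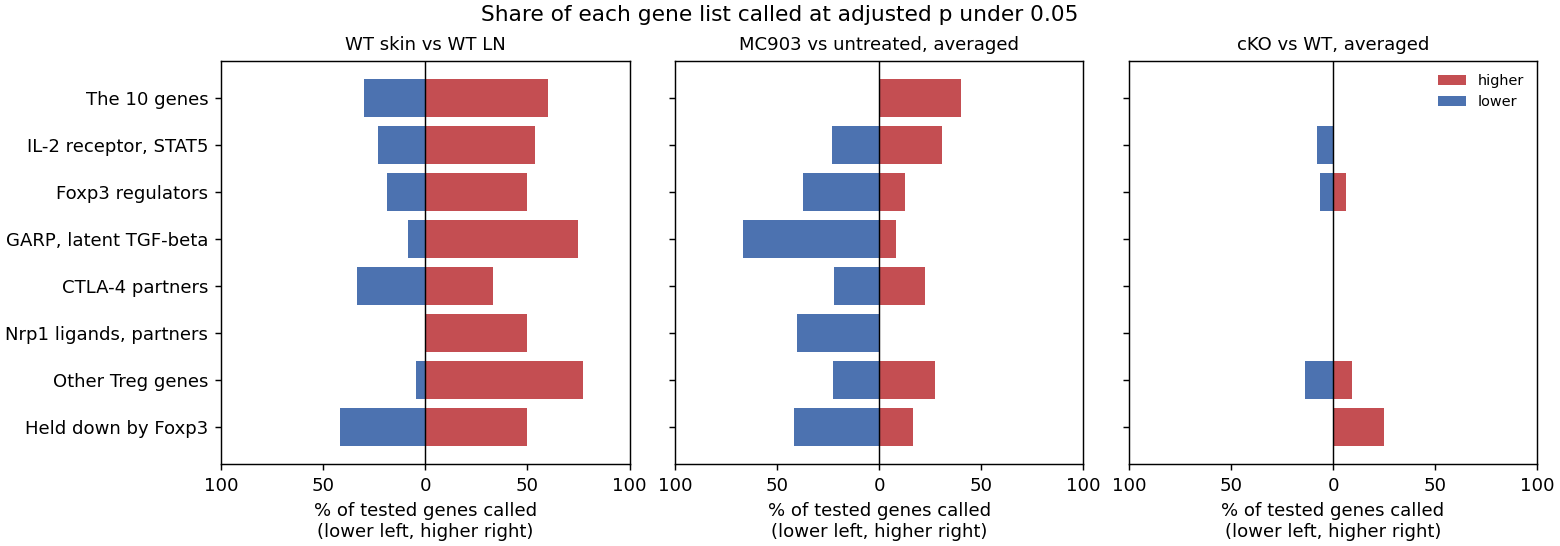
Share of the tested genes of each list called lower (left) or higher (right) in 3 comparisons. Of the 22 other Treg genes 17 are higher and 1 lower in skin against LN, 8 of the 12 GARP and TGF-beta genes are lower and 1 higher with MC903, and the 10 genes have no bar for genotype.

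Genes whose pattern was closest to that of Foxp3 were ranked by the root mean square difference of centred log2 CPM among 7785 genes. Over all 15 libraries they were the Mediator subunit gene Med13 (0.24), the adhesion gene Alcam (0.27), the glutaredoxin gene Glrx (0.27), Trib1 (0.28) and Aebp2 (0.28). Trib1, for one, averaged 18.5 ± 5.41 CPM in LN and 103 ± 23.6 CPM (SD) in skin of untreated WT mice. Of the other members Ctla4 came nearest, at rank 494 (0.54), and Gpr83 was at rank 7777. Over the 12 skin libraries, where Foxp3 had an SD of 0.25 on the log2 scale, the nearest were Pnp (0.10), Taok1, Tom1 (0.12 each), Pcna and Akap9 (0.13 each), and Ikzf2 was at rank 74 (0.17). These likenesses are descriptions over libraries that share tissue and treatment.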

How the data were processed

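The labels' protocols name the SMART-Seq v4 low-input kit, which does not mark strand, and single-end sequencing. TopHat2 2.0.6, the mm9 genome and DESeq2 are named in the submitters' processing notes, and the counting and annotation are not given in the sources used here, so overlapping genes are uncertain. The authors deposited whole-number counts per gene, and a table of LN against skin with log2 fold changes and p-values, per the file headers. The present values come from the deposited counts.

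In R 4.3.3, edgeR 4.0.16 (filterByExpr, TMM, robust quasi-likelihood F test, Benjamini-Hochberg adjustment over 13578 genes, called at an adjusted p under 0.05) fitted all 15 libraries with a term for each of 5 groups; SE is the log2 change over the square root of F. The common dispersion was 0.138. TMM factors were 0.903 to 1.26. The pipeline was tested on simulated data. Alternatives used DESeq2 1.42.0, limma 3.58.1 and those named in the closing section. The 10 genes and the lists were chosen with earlier results of these data known. Per list and comparison, up to 3 called genes, those of lowest adjusted p, could be named, with the 5 genes most like Foxp3 (mean log2 CPM of 3 or more) and Rora; Ccdc22, Pecam1, Mre11a and Panx1 were added for their position or role. Replicate files differed beyond sampling noise (chi-square per degree of freedom 13.6 to 86.0). The reads carry no molecular identifiers.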

Additional observations from a re-analysis of the deposited data

How the results depend on the processing

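Counts of the 10 genes called kept within 1.5 times the main count in 199 of 216 alternatives. In untreated skin, genotype called 1 by DESeq2, by the filter of 50 counts and, in a run chosen after seeing the data, without LN replicate 3 and WT untreated skin replicate 2. In MC903 skin it called 1 by DESeq2, by limma-voom and in that run. Averaged over treatments it called 3 by DESeq2 and 1 in that run. MC903 in WT called 1 with only the compared groups and 1 without the 3 fibroblast-rich libraries, also chosen after seeing the data. Leaving out single libraries gave 9 to 10 for skin against LN, 9 to 9 for MC903 skin against LN, 0 to 1 for genotype in each treatment, 0 to 2 for the averaged genotype, 2 to 3 for MC903 in WT, 3 to 4 in cKO, 4 to 4 averaged and 0 to 0 for the interaction. Where a count changed, the cause was not tested.

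Replicate numbers did not pair libraries (30 same-number correlations of -0.277 to 0.223, 3 over 0.1, and 6 of 15 libraries closest to their own number), and with the replicate block the counts were 9, 9, 0, 0, 0, 3, 4, 4 and 0, as without it. Of 2160 single-gene values, 2081 kept direction and call, 14 lost a call, 23 gained one and 42 changed sign, all of uncalled changes near 0. Those were Ctla4 with MC903 averaged (-0.01 by relative log expression factors, -0.01 by DESeq2, -0.00 with no filter, -0.04 without LN replicate 3 and WT skin replicate 2, and -0.05 to 0.08 over left-out libraries), Il2ra between genotypes in untreated skin (0.02 with the replicate block, -0.26 to 0.17), Lrrc32 in MC903 skin (0.09 without fibroblast-rich libraries, -0.18 to 0.09), and, without LN replicate 3 and WT skin replicate 2, Folr4 (-0.03) and Il2rb (-0.09) between genotypes in untreated skin and Ikzf4 in the interaction (0.05). Over left-out libraries the ranges were -0.20 to 0.05 for that Ikzf4 value, -0.03 to 0.42 for Folr4, -0.09 to 0.14 for Il2rb and -0.04 to 0.12 for Nrp1 in untreated genotypes. They were -0.14 to 0.13 for Foxp3 and -0.06 to 0.18 for Ctla4 in MC903 genotypes, -0.14 to 0.09 for Il2rb and -0.25 to 0.01 for Ctla4 with MC903 in WT, -0.34 to 0.03 for Gpr83 and -0.00 to 0.11 for Ikzf2 with MC903 in cKO, and -0.04 to 0.55 for Lrrc32 between MC903 skin and LN.

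Over all genes, DESeq2 called 323 for genotype in untreated skin where edgeR called 109, 140 where it called 35 in MC903 skin, 462 where it called 237 averaged, and 17 in the interaction. limma-voom called 104 in MC903 genotypes and 2642 for MC903 in cKO (1529 by edgeR). With only the compared groups MC903 in WT called 514 (1421), and 778 or 840 without WT MC903 replicate 1 or 3. Genotype in untreated skin called 62 without WT replicate 3, 67 without cKO replicate 2 and 62 without cKO replicate 3. In MC903 skin it called 22 without WT replicate 2, 23 and 22 without cKO replicate 2 or 3, and 53 without LN replicate 3. MC903 in cKO called 663 to 995 without single libraries of its groups (replicates 2 and 3 untreated, all 3 treated). Without the fibroblast-rich libraries the counts were 55, 13 and 107 for genotype (untreated, MC903 and averaged), 767 for MC903 in WT and 1 for the interaction, and without LN replicate 3 and WT skin replicate 2 they were 65 for genotype in MC903 skin and 1 for the interaction, which was also 1 without WT skin replicate 1 or 2 alone. Scaling to total counts moved 10 of 50 mean levels by more than 1 SD, those in LN up to 1.19 times higher. With 3 libraries a group, low genes such as Gpr83 in skin are the least precise.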
